A study of Mus musculus with 14 samples.

Results

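Matricellular proteins are secreted into the extracellular matrix and change how cells adhere, move and signal rather than only bearing load. The genes described here are 8 of the 53465 in the count table, found by their symbols: Spp1 (osteopontin), Tnc (tenascin-C), Thbs1 and Thbs2 (thrombospondins), Postn (periostin), Sparc (osteonectin), Fn1 (fibronectin) and Cd44, a surface receptor for hyaluronan and osteopontin. They were selected on measured levels in these libraries, in particular the counts of Spp1 in the skin libraries titled ES and of Postn in those titled E, so differences between the ES and E titles are described without a test. All 8 passed the low-count filter of every model.

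All 14 libraries are labelled as polyA RNA-seq of tissue from wild-type C57BL/6 mouse embryos. They comprise 4 dorsal skin libraries titled ES, 6 of the aorta-gonad-mesonephros region (AGM) and 4 dorsal skin libraries titled E. Each skin title has 1 library at each of 4 embryonic days (E9.5, then E10.5, E12.5 and last E14.5). The AGM has rounds 1 and 2, each with an E9.5, an E10.5 and an E11.5 library, the youngest labelled as the caudal part of the embryo including the PsP. The ages of the round 2 AGM libraries rest on their sample numbers, which the round 1 labels tie to an age. The labels give ES and E skin the same tissue, strain, genotype and ages but different sequencing projects, and do not say what ES stands for or whether embryos were pooled or separate. P-values therefore measure only the spread between these samples. Where ES or E skin was fitted as a title of its own, that spread came from the AGM pairs alone.

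In the embryo, fibronectin is laid down early as a fibril network on which cells migrate, and tenascin-C marks condensing mesenchyme and tissue interfaces. Thrombospondins and Sparc bind collagen and growth factors, periostin crosslinks the matrix of developing dermis and periosteum, and osteopontin, best known from bone, macrophages and healing wounds, binds integrins and Cd44. In the AGM, blood stem cells emerge from the wall of the dorsal aorta, surrounded by mesenchyme that makes such matrix.

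The 3 genes with the most contrasting patterns are shown by the 250 bases before their RefSeq start site (GRCm38.p6, gene strand, 5′ to 3′). Spp1 had the most counts of all genes in ES skin and ranked between 11387 and 14044 elsewhere, Tnc had the largest ratio of highest to lowest CPM within E skin (111), and Postn had its highest levels in E skin. The Spp1 sequence is chr5:104434861-104435110 on the plus strand, the Tnc sequence chr4:64047016-64047265 on the minus strand and the Postn sequence chr3:54360857-54361106 on the plus strand. Capitals mark matches on either strand to 5 motifs: the TATA box TATAAA, the Runx motif AACCACA, the CCAAT box, the AP-1 motif TGANTCA and the TEAD motif CATTCC.
Spp1: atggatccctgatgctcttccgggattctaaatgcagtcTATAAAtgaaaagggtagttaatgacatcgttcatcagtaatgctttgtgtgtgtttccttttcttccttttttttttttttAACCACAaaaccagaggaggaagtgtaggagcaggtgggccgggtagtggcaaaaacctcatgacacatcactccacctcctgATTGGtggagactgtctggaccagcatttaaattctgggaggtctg
Tnc: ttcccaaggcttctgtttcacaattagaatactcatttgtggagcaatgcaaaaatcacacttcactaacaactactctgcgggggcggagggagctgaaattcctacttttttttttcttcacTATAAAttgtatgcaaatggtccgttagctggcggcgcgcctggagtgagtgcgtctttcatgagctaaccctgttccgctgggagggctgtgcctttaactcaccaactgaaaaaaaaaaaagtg
Postn: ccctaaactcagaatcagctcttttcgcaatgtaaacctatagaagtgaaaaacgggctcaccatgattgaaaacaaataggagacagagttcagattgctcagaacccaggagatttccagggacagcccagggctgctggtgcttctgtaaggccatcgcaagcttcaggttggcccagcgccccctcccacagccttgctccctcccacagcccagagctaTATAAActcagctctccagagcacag

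In Spp1 the matches were TATAAA from base -211, AACCACA from base -129 and ATTGG, the complement of CCAAT, from base -46, counted back from the start site. In Tnc the only match was TATAAA from base -126, and in Postn it was TATAAA from base -26. No letters of another match overlapped these. Over all 32851 windows of this length, 12.4% held TATAAA, 4.4% AACCACA, 33.8% CCAAT, 6.75% TGANTCA and 12.6% CATTCC. Of the 8 genes, 6 had a window in the table (Thbs1 and Fn1 had none).

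Spp1 (ENSMUSG00000029304, GRCm38 chr5:104435118-104441050) had 30009.6, 22229, 34966 and 26886 CPM (counts scaled to a common library total) in ES skin in order of age, against 3.26, 1.19, 4.58 and 6.45 CPM in E skin in the same order. The AGM held 3.86 and 4.64 CPM in rounds 1 and 2 at E9.5, then 3.92 and 4.45 at E10.5, and 0.967 and 1.21 at E11.5. All 4 ES libraries lay far above every other library, and in each of them Spp1 was the most counted gene. In whole tissue, fewer cells of a type and less RNA per cell cannot be told apart. In E skin it ranked between 11387 and 13678 by count, and in the AGM between 11554 and 14044. The E skin value at E10.5 rested on 27 counts (exact 95% binomial interval 0.783 to 1.73 CPM, counting error only). A predicted transcript, Gm42793, overlaps Spp1 on the same strand and had up to 757 counts, so reads shared with it cannot be told apart.

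Tnc (ENSMUSG00000028364, chr4:63959785-64047015) had 7907, 10521, 6506 and 12384 CPM in ES skin over the 4 ages, against 43.6, 3.21, 357 and 186 CPM in E skin. AGM libraries held 161 and 114 CPM at E9.5, then 78.8 and 74.9 at E10.5, and 28.1 and 29.4 at E11.5. The lowest Tnc level of all libraries was in E skin at E10.5, and in ES skin the gene ranked between 2 and 6 of all genes. An antisense transcript, 8030451A03Rik, lies over Tnc with up to 718 counts, and the sources used here do not state whether counting used the strand.

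The thrombospondins, which bind Cd36, Cd47 and growth factors in the matrix, were also higher in ES skin. Thbs1 (ENSMUSG00000040152, chr2:118111876-118127133) lay at 2797, 3084, 1982 and 3113 CPM in ES skin over the 4 ages, against 46.0, 56.3, 289 and 342 CPM in E skin. Its AGM values were 150.4 and 115 CPM at E9.5, then 108 and 95.5 at E10.5, and 55.1 and 54.6 at E11.5. The ES libraries were clear of all others, and E skin split into low values at E9.5 and E10.5 and higher ones at E12.5 and E14.5. Thbs2 (ENSMUSG00000023885, chr17:14665500-14694262) lay at 413, 729, 397 and 828 CPM in ES skin, against 4.21, 4.62, 86.4 and 308 CPM in E skin. In the AGM it had 20.0 and 13.3 CPM at E9.5, then 6.49 and 5.93 at E10.5, and 2.34 and 2.60 at E11.5. The ES libraries were again the highest 4, with E skin at E14.5 next.

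Postn (ENSMUSG00000027750, chr3:54361109-54391037) broke this order. It had 193, 228, 213 and 268 CPM in ES skin over the 4 ages, against 70.7, 28.4, 427 and 1964 CPM in E skin. AGM libraries held 99.4 and 106 CPM at E9.5, then 59.1 and 76.5 at E10.5, and 147 and 217 at E11.5. The highest levels were the E12.5 and E14.5 libraries of E skin, and the round 2 AGM library at E11.5 lay within the ES range.

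Sparc (ENSMUSG00000018593, chr11:55394500-55423183), a collagen-binding glycoprotein, had 2810.3, 3733, 2534 and 3554 CPM in ES skin, against 179, 170.3, 898 and 2448 CPM in E skin. In the AGM it lay at 551 and 449.9 CPM at E9.5, then 312 and 289 at E10.5, and 187 and 194 at E11.5. At E14.5 E skin nearly reached the lowest ES library. Fn1 (ENSMUSG00000026193, chr1:71585520-71653200), which polymerises into fibrils on integrin receptors, had 7476, 8467, 8412 and 9096 CPM in ES skin, against 671, 381, 1022 and 1896 CPM in E skin. Its AGM values were 1495 and 1115 CPM at E9.5, then 1044 and 957 at E10.5, and 1152 and 1021 at E11.5, overlapping the E12.5 value of E skin. Cd44 (ENSMUSG00000005087, chr2:102811141-102901665) had 519, 599, 383 and 619 CPM in ES skin, against 9.48, 7.70, 30.8 and 269.7 CPM in E skin. All 6 AGM libraries lay below the E12.5 and E14.5 libraries of E skin, with 10.6 and 11.3 CPM at E9.5, then 11.2 and 12.51 at E10.5, and 8.46 and 7.29 at E11.5.

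**Figure D1:**
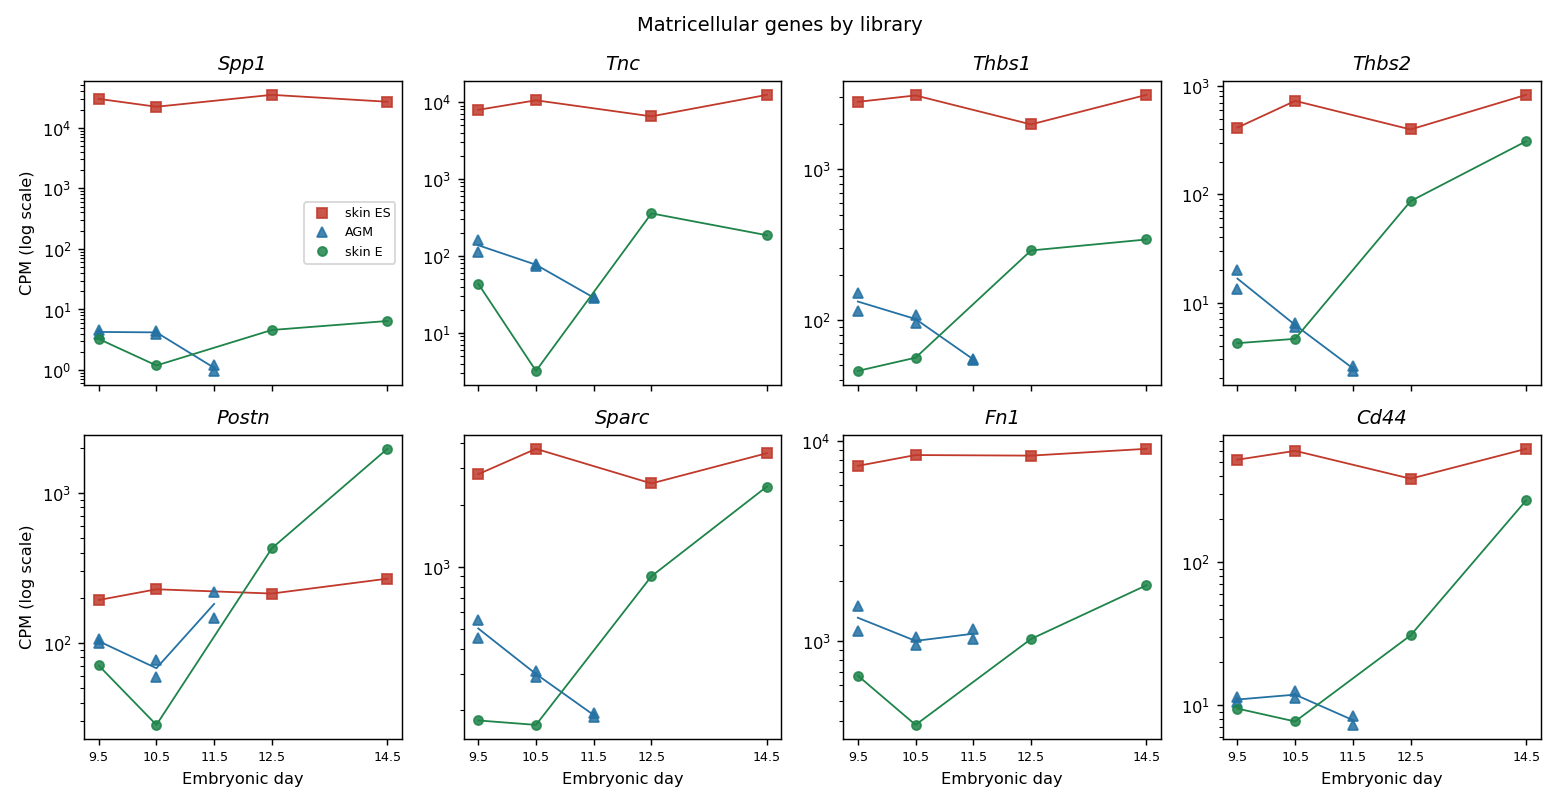
CPM on a log axis against embryonic day for each gene, with squares for ES skin, triangles for both AGM rounds and circles for E skin; lines join the mean of each age. Postn is highest in E skin at E14.5, at 1964 CPM. Levels in the skin libraries helped select the genes, so the gap between ES skin and the other libraries is only described.

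Together the 8 genes took 4.96% to 5.67% of all counts in ES skin, 0.152% to 0.249% in the AGM and 0.0653% to 0.742% in E skin. Libraries held 6770338 to 15440012 counts in ES skin, 21527400 to 29534551 in the AGM and 19929352 to 24003912 in E skin. Per kilobase of merged exons, Spp1 led the 8 genes in all 4 ES libraries, at 13488 to 21217 CPM per kb, followed in each by Tnc, at 837 to 1593 CPM per kb. Postn was last of the 8 in all 4, at 22.2 to 30.8 CPM per kb. In the AGM and in E skin, Sparc and Fn1 held the top 2 places per kilobase in every library except E skin at E14.5, where the order was Sparc, Postn, Fn1. There Sparc stood at 646, Postn at 226 and Fn1 at 162 CPM per kb.

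Marker genes of cell types were summed in each library. The ES libraries bear the same tissue label as the E libraries. They lay below every E library for keratinocyte, haemoglobin, endothelial and cycling markers. ES skin is therefore used here as the label only, and what these libraries hold was not tested. The 5 keratinocyte markers summed to 2.46 to 7.53 CPM in ES skin, 22.97 to 52.9 CPM in the AGM and 20.7 to 3096 CPM in E skin, and Krt14, Krt15 and Trp63 stayed under 1 CPM in ES skin. Haemoglobin genes summed to at most 0.148 CPM in ES skin, with Hbb-bt, Hba-a2 and Hbb-y at 0, against 3438 to 10317 CPM in the AGM and 1145 to 7982 CPM in E skin. Endothelial markers summed to 14.7 to 30.3 CPM in ES skin, 284 to 385 CPM in the AGM and 286 to 559 CPM in E skin, and cycling markers to 142 to 236, 1904 to 2335 and 1405 to 2455 CPM. Dermal fibroblast markers, all 5 present, summed to 2675 to 3974 CPM in ES skin, 657 to 1381 CPM in the AGM and 254 to 11655 CPM in E skin. Cartilage markers summed to 8.10 to 9.75 CPM in ES skin, 284 to 1623 CPM in the AGM and 92.5 to 1983 CPM in E skin, and neuron markers to 76.1 to 139, 82.4 to 364 and 107 to 1849 CPM. For muscle the sums were 51.0 to 101, 65.8 to 346 and 117 to 1594 CPM, for smooth muscle 213 to 582, 115 to 278 and 51.7 to 366 CPM, and for blood stem and progenitor cells 39.0 to 56.0, 55.7 to 118 and 52.3 to 149 CPM. In ES skin the muscle markers Myod1 and Myog were at 0 and the neuron markers Dcx and Elavl3 stayed under 1 CPM, so those sums came from the other list genes. The part of these cell types in the levels above was not tested.

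**Figure D2:**
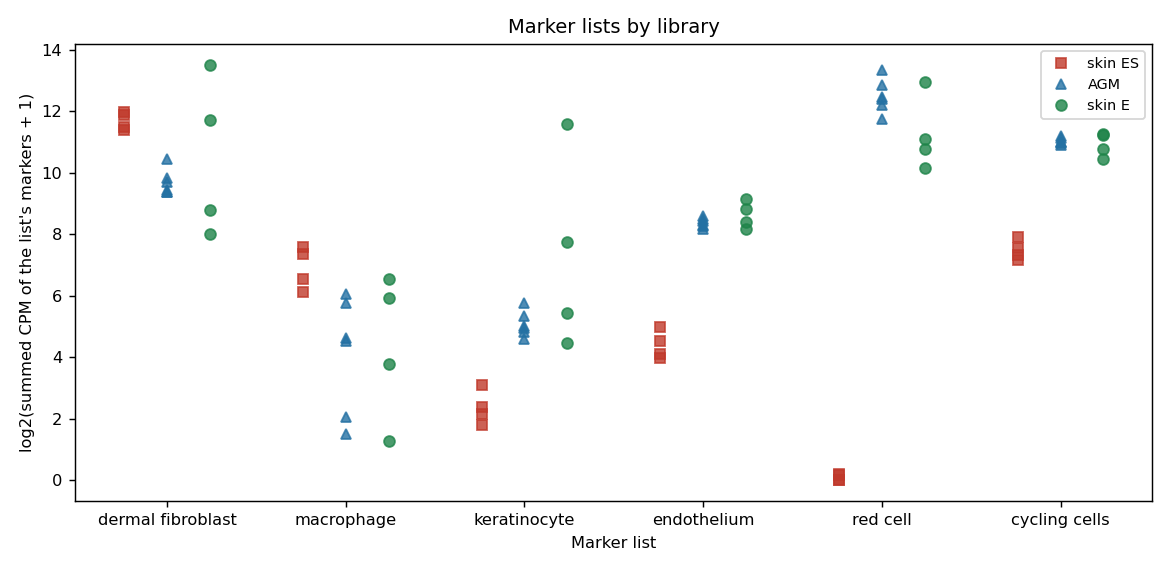
Summed CPM of the markers of 6 cell types, as log2 of the sum plus 1, for each ES skin (squares), AGM (triangles) and E skin (circles) library. ES skin lies below the other libraries for keratinocyte, endothelial, red cell and cycling markers, with red cell sums of at most 0.148 CPM.

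In order of age the ES over E ratio of Spp1 was 9201, 18702, 7630.2 and 4171, and that of Tnc 182, 3274, 18.2 and 66.6. Counting ratios of CPM + 1 past 4-fold, 7, 8, 6 and 4 of the 8 genes were higher in ES skin at those ages, where 10.3%, 9.07%, 8.14% and 5.39% of all 21964 genes were. Past 4-fold lower in ES skin were 0, 0, 0 and 1 of the 8 genes, against 10.6%, 10.4%, 12.3% and 10.1% of all genes, and the 1 was Postn at E14.5, with a ratio of 0.136. Since these values chose the genes, nothing is read from the counts. From E9.5 to E14.5 the ratio changed from gene to gene: for Cd44 it was 2.29 at E14.5 against 54.8 at E9.5, for Thbs2 2.69 against 97.9 and for Sparc 1.45 against 15.7. Markers of macrophages, a source of osteopontin in many tissues, summed to 67.8 to 188 CPM in ES skin, 1.85 to 64.8 CPM in the AGM and 1.40 to 91.6 CPM in E skin. Osteoblast markers summed to 28.1 to 42.0, 16.96 to 39.4 and 17.5 to 69.5 CPM, and in ES skin Sp7, Bglap, Ibsp and Alpl stayed under 1 CPM. The part of these cells in the Spp1 level was not tested.

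**Figure D3:**
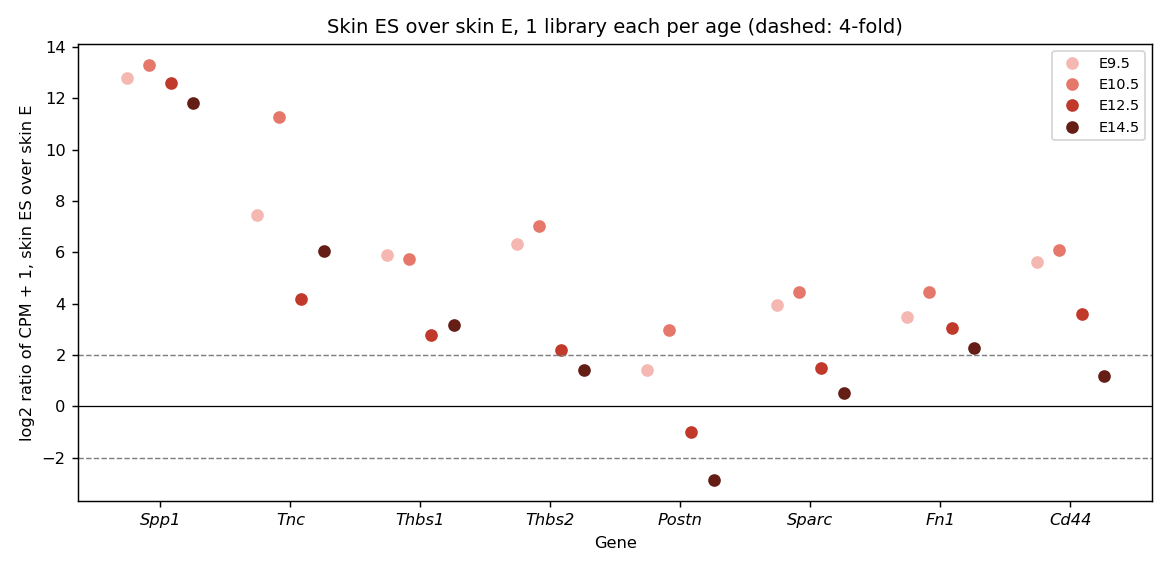
Log2 ratio of CPM + 1 in ES skin over E skin for each gene, 1 point per age from E9.5 (light) to E14.5 (dark), with dashed lines at 4-fold. All Spp1 points lie far above the line, while Postn crosses 0 between E10.5 and E12.5; each point compares 1 library with 1 library and has no replicate error.

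In E skin, where each age is a single library assumed to vary like the AGM pairs, all 8 genes were higher at E14.5 than at E9.5 (edgeR quasi-likelihood test with Benjamini-Hochberg adjustment over 21964 genes, of which 40.9% passed, 4943 higher and 4033 lower). Thbs2, the most changed of the 8, rose by 6.26 ± 0.32 on the log2 scale (± SE, adjusted p = 5.5e-06). Cd44 rose by 4.89 ± 0.17 and Postn by 4.86 ± 0.29, while Sparc rose by 3.84 ± 0.20 and Thbs1 by 2.96 ± 0.22. Tnc gained 2.16 ± 0.24, Fn1 1.56 ± 0.22 and Spp1 1.05 ± 0.18 (adjusted p = 0.002). The median over the 8 genes was 3.40, against 0.00 over all genes tested. Levels in these E skin libraries, in particular of Postn, helped select the genes. Nothing is therefore read from the number of calls or the median, and E skin p-values here and below are no independent support. For Spp1, wherever E skin enters this fit, here and below, the SE lay under counting error alone. Its p-values there are likely too small. The biological coefficient of variation was 12.3% in this fit, from the AGM pairs, and 40.9% in the fit that takes the ES and E libraries of an age as replicates. Marker sums of other cell types moved in the same 4 libraries: in order of age, dermal fibroblast markers summed to 442, 254, 3338 and 11655 CPM, keratinocyte markers to 42.2, 20.7, 212 and 3096 CPM and red cell markers to 1145, 2189, 1728 and 7982 CPM. Muscle markers summed to 117, 189, 1097 and 1594 CPM, macrophage markers to 1.40, 12.55, 59.6 and 91.6 CPM, cartilage markers to 479, 608, 1983 and 92.5 CPM and neuron markers to 269.8, 1849, 1050.0 and 107 CPM. Their part in the E skin changes was not tested.

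At E10.5, 3 of the 8 genes fell relative to E9.5 and 5 did not pass (1.27% of all genes lower, 4.88% in either direction). The log2 changes were -3.74 ± 0.28 for Tnc (adjusted p = 0.0011), -1.43 ± 0.22 for Spp1 (adjusted p = 0.01) and -1.30 ± 0.26 for Postn (adjusted p = 0.028). Fn1 stood at -0.80 ± 0.22, adjusted p = 0.088, and passed with the AGM round as a block (adjusted p = 0.00045), with DESeq2 (0.003) and without either E9.5 AGM library (0.016 and 0.015), and without the low-count filter (6e-09). Neuron marker sums were 1849 CPM at E10.5 and 269.8 CPM at E9.5 in these libraries, and keratinocyte sums 20.7 CPM at E10.5 and 42.2 CPM at E9.5. At E12.5 relative to E10.5 all 8 rose (25.9% of all genes passed, 3192 higher and 2494 lower), from 1.35 ± 0.22 for Fn1 to 6.72 ± 0.30 for Tnc, adjusted p = 2.4e-05. Thbs2 gained 4.15 ± 0.30, Postn 3.84 ± 0.28, Sparc 2.33 ± 0.18 and Thbs1 2.29 ± 0.22 over that interval.

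At E14.5 relative to E12.5, 6 genes rose, Tnc fell and Thbs1 did not pass (12.2% of all genes higher, 11.3% lower, 23.5% in either direction). Cd44 had its largest step here, 3.25 ± 0.15, adjusted p = 1.2e-05, followed by Postn (2.32 ± 0.26), Thbs2 (1.95 ± 0.25), Sparc (1.57 ± 0.18) and Fn1 (1.01 ± 0.22). Tnc fell, with a log2 change of -0.82 ± 0.22 (adjusted p = 0.031), so its highest E skin level was at E12.5. Thbs1 stood at 0.36 ± 0.21, adjusted p = 0.26, at 0.03 with the round as a block and at 0.045 without the low-count filter. Spp1 rose by 0.61 ± 0.17 (adjusted p = 0.033), a call that ended without the ES libraries in the fit (0.16), by DESeq2 (0.056) and without either E10.5 AGM library (0.051).

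In ES skin 0 of the 8 genes passed the edgeR test between E14.5 and E9.5, and 2.83% of all genes did. At an unadjusted p under 0.05 edgeR gave 5 of the 8, and DESeq2 called 2, Tnc (adjusted p = 0.042) and Thbs2 (0.0018). The values ran from -0.05 ± 0.14 for Spp1 to 1.12 ± 0.24 for Thbs2 (adjusted p = 0.053). Without the round 1 or the round 2 AGM library at E9.5, Thbs2 passed at 0.009 and 0.0092 and Tnc at 0.02. Without the low-count filter Thbs2 (5.8e-09), Tnc (2.7e-06) and Postn (0.02) passed. With the AGM round as a block, 6 passed, Thbs2 (adjusted p = 0.00022), Cd44 (0.0026), Tnc (0.0044), Postn (0.014), Sparc (0.017) and Fn1 (0.022), all higher at E14.5. That block acts on the AGM libraries only, so the Thbs2 change stayed at 1.12 while its SE went from 0.24 to 0.13. A deviation of a lone skin library stays in, so the blocked p-values are likely too small. Across the 4 ES libraries the highest level was 1.22 times the lowest for Fn1 and 2.09 times for Thbs2, the extremes of the 8 genes, whereas in E skin these ratios ran from 4.98 for Fn1 to 111 for Tnc.

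Set side by side, with no test because these libraries give the ES over E ratios by which the genes were selected, the ES change between E14.5 and E9.5 minus the E change was -5.14 for Thbs2, -4.53 for Cd44, -4.27 for Postn and -3.39 for Sparc. For Thbs1 it was -2.69, for Tnc -1.40, for Fn1 -1.17 and for Spp1 -1.09. Over all 21964 genes, 23% had a nonzero difference by the edgeR test, and nothing is read from this for the 8 genes.

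When the ES and E libraries of an age were taken as replicates with the title as a block, the edgeR test called 0 of the 8 genes in each of the 4 skin age comparisons (0% of 18968 genes for the 3 intervals and 0.0105% for E14.5 against E9.5). For E14.5 against E9.5 the values ran from 0.51 ± 0.71 for Spp1 to 3.86 ± 1.73 for Thbs2, with adjusted p from 0.61 to 0.80. By unadjusted p under 0.05 the 8 genes gave 1 call for E14.5 against E9.5 and 0 in each interval, and DESeq2 gave 0 in all 4. On simulated counts for E14.5 against E12.5 that fit recovered 0% of 2-fold, 36% of 4-fold and 90% of 16-fold changes.

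**Figure D4:**
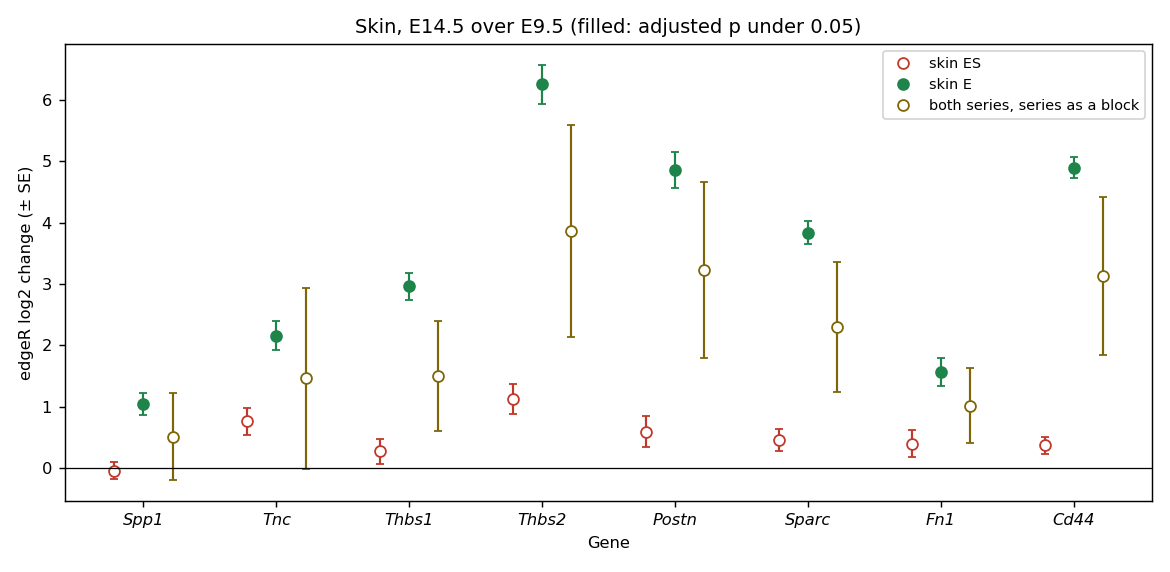
Log2 change from E9.5 to E14.5 with its SE for each gene in ES skin (red), E skin (green) and both titles with the title as a block (ochre); filled points passed an adjusted p of 0.05. All 8 green points are filled and lie above the red ones, while every red and ochre point is open. Levels in the ES and E libraries helped select the genes, so this is a description.

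In the AGM, with 2 libraries an age, 3 of the 8 genes fell at E10.5 relative to E9.5 and 5 did not pass (1.72% of 17613 genes lower, 2.59% in either direction). The E9.5 libraries are labelled as the caudal part of the embryo including the PsP. In every AGM comparison with E9.5, age and dissected part therefore cannot be told apart. The log2 changes were -1.37 ± 0.21 for Thbs2 (adjusted p = 0.026), -0.79 ± 0.15 for Tnc (adjusted p = 0.041) and -0.68 ± 0.12 for Sparc (adjusted p = 0.032). Each of these calls ended without the E9.5 round 1, E10.5 round 1 or E10.5 round 2 library, with adjusted p from 0.066 to 0.26, and without E9.5 round 1 the log2 change of Tnc was -0.52. The Tnc call also ended without E11.5 round 1 (0.053), with median-of-ratios scaling (0.05004) and with all 14 libraries fitted (0.051). With the round as a block 6 genes were lower, adding Postn (adjusted p = 0.00053), Thbs1 (0.0052) and Fn1 (0.0074), and without the low-count filter Postn (7.6e-05) and Fn1 (0.014) passed as well. Spp1 at 0.04 ± 0.21 and Cd44 at 0.17 ± 0.15 did not pass, and for both genes the 2 ages overlap.

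At E11.5 relative to E10.5, 6 genes fell, Postn rose and Fn1 did not pass (15.4% of all genes lower, 11.8% higher, 27.2% in either direction). Spp1 averaged 1.09 ± 0.170 CPM at E11.5 and 4.19 ± 0.380 CPM at E10.5 (SD, n = 2 each), a log2 change of -1.86 ± 0.24 (edgeR adjusted p = 0.0012). The change was -1.33 ± 0.16 for Tnc, -1.24 ± 0.24 for Thbs2 and -0.80 ± 0.14 for Thbs1. Sparc changed by -0.57 ± 0.12 (adjusted p = 0.0093), and reached 0.058 without E10.5 round 1 and 0.053 without E11.5 round 1. Cd44 changed by -0.50 ± 0.15 (adjusted p = 0.042), a call that ended with DESeq2 (0.078) and without any 1 of the 6 libraries (0.054 to 0.2). Postn averaged 182 ± 49.4 CPM at E11.5 and 67.8 ± 12.3 CPM at E10.5 (SD, n = 2 each), a log2 change of 1.51 ± 0.18 (edgeR adjusted p = 0.00093). Fn1 stood at 0.21 ± 0.15, adjusted p = 0.34, and at 0.03 with the round as a block.

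Over the whole span, 5 genes were lower at E11.5 than at E9.5, Postn was higher, and Fn1 and Cd44 did not pass (24% of all genes lower, 21.1% higher, 45.2% in either direction). The log2 changes were -2.61 ± 0.23 for Thbs2 (adjusted p = 0.00011), -2.12 ± 0.16 for Tnc, -1.82 ± 0.24 for Spp1, -1.25 ± 0.12 for Sparc and -1.13 ± 0.14 for Thbs1. Postn rose by 0.97 ± 0.18 (adjusted p = 0.0035). These 6 calls held under all the alternatives run. The median of the 8 genes was -1.19, against -0.0039 over all genes tested. Age and dissected part cannot be told apart over this span. In rounds 1 and 2 the macrophage markers summed to 64.8 and 53.6 CPM at E9.5, then 23.3 and 22.1 at E10.5, and 1.85 and 3.11 at E11.5, and the cartilage markers to 1623 and 1218, then 1029 and 811, and 306 and 284 CPM. In the same order fibroblast markers summed to 1381 and 907, then 825 and 698, and 658 and 657 CPM, neuron markers to 328 and 278, then 346 and 364, and 82.4 and 100.1 CPM, and red cell markers to 10317 and 5589, then 7329 and 5375, and 3438 and 4754 CPM. Muscle markers summed to 189 and 244, then 293 and 346, and 99.9 and 65.8 CPM, and smooth muscle markers to 278 and 218, then 243 and 223, and 115 and 121 CPM. Their part in the AGM changes was not tested.

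**Figure D5:**
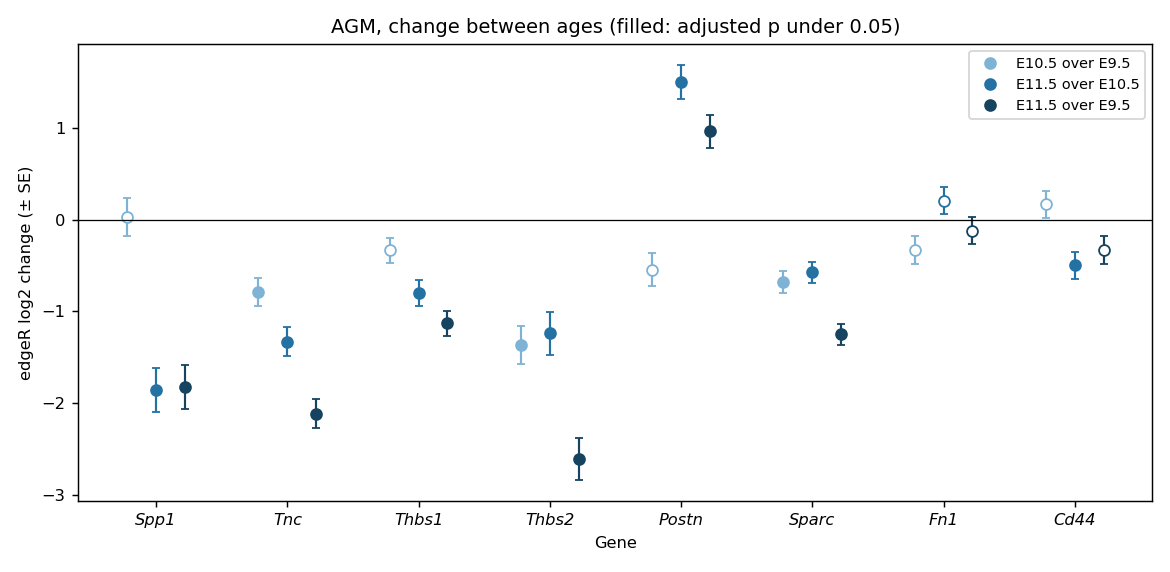
Log2 change between AGM ages with its SE for each gene, for E10.5 over E9.5 (light), E11.5 over E10.5 (mid) and E11.5 over E9.5 (dark); filled points passed an adjusted p of 0.05. Postn alone has filled points above 0, and Thbs2 reaches -2.61 over the whole span. E9.5 is labelled as the caudal part of the embryo, so age and dissected part cannot be told apart in comparisons with it.

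Set against E skin of the same age, 5 genes were higher in the AGM at E9.5 and 3 did not pass (16.2% of all genes higher, 28.6% in either direction). Thbs2 was higher by 1.98 ± 0.28, Tnc by 1.65 ± 0.21, Thbs1 by 1.52 ± 0.19, Sparc by 1.47 ± 0.16 and Fn1 by 0.95 ± 0.20. Postn stood at 0.52 ± 0.22, adjusted p = 0.12, and passed with the round as a block (adjusted p = 0.0058) and without the round 1 (0.048) or round 2 (0.044) AGM library at E11.5, and without the low-count filter (0.0029). At E10.5, 7 were higher and Thbs2 did not pass (9.78% of all genes higher, 20% in either direction). Tnc differed most, by 4.59 ± 0.27, adjusted p = 1.8e-05, followed by Spp1 (1.82 ± 0.19), Fn1 (1.41 ± 0.20), Postn (1.27 ± 0.24), Thbs1 (0.87 ± 0.19) and Sparc (0.84 ± 0.16). Cd44, at 0.64 ± 0.15, adjusted p = 0.017, no longer passed without E10.5 round 2 of the AGM (0.078). No sequencing project holds both tissues, so tissue and project cannot be told apart. At E9.5 the AGM label is the caudal part of the embryo, which also enters that comparison and the change from E9.5 below. In both, E skin is 1 library per age, assumed to vary like the AGM pairs. Its levels helped select the genes, so nothing is read from the number of calls. The p-values are no independent support.

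The change from E9.5 to E10.5 differed between the AGM and E skin for Tnc and Spp1 (1.73% of all genes higher, 5.82% in either direction). The AGM change minus the E skin change was 2.94 ± 0.32, adjusted p = 0.0041 for Tnc and 1.46 ± 0.26, adjusted p = 0.016 for Spp1, and the Spp1 call ended without the ES libraries in the fit (0.064). With the round as a block Thbs2 (-1.54 ± 0.39, adjusted p = 0.06, blocked 0.0038), Sparc (blocked 0.0089), Thbs1 (0.013), Postn (0.017) and Fn1 (0.023) also passed. Without the round 2 E9.5 AGM library, Thbs2 (0.005), Sparc (0.031) and Thbs1 (0.035) passed, and without the round 1 library Thbs2 did (0.037). Without the low-count filter Thbs2 (3.4e-07), Postn (0.0027), Sparc (0.0059), Thbs1 (0.0087) and Fn1 (0.028) passed, and DESeq2 called Thbs2 (0.0037).

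Other matricellular genes, a list of 17 that holds CCN proteins, further tenascins and thrombospondins, and SPARC relatives, were followed beside the 8. Of all genes tested, 40.9% passed in E skin, 2.83% in ES skin and 45.2% in the AGM (24% lower, 21.1% higher) in the comparisons below. In E skin at E14.5 relative to E9.5, 14 rose, 1 fell and 2 did not pass (median 3.21). Nov, a CCN protein, rose by 9.32 ± 0.29, Thbs3 by 0.51 ± 0.16, and Smoc1, a SPARC relative of basement membranes, changed by -2.05 ± 0.22. The Nov change rests on 5 counts at E9.5 against 3508 at E14.5, and its SE lies under counting error alone. Tnn, tenascin-W, had 78 counts at E14.5 and 0 at E9.5, at least 23.2-fold higher against a floor of 3 counts in the E9.5 library. In ES skin 3 of 17 rose and 14 did not pass, and the 3 were the CCN genes Cyr61 (1.61 ± 0.17), Ctgf (1.38 ± 0.21) and Wisp1 (0.73 ± 0.14). In the AGM at E11.5 relative to E9.5, 10 of 15 tested fell, 1 rose and 4 did not pass (median -0.81), with Igfbp7 at -3.98 ± 0.50, Tnr at -3.98 ± 0.51, Wisp1 at -0.36 ± 0.11 and Smoc1 at 1.17 ± 0.14. Over both libraries of an age, Igfbp7 had 9 counts at E11.5 and 190 at E9.5. Tnr had 4 and 86, so both changes rest on few counts.

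Receptors of the 8 proteins, a list of 16 integrin subunits, syndecans and scavenger receptors, had 14 higher and 2 lower in E skin at E14.5 relative to E9.5 (median 1.40). Sdc4, a syndecan that binds fibronectin, rose by 2.59 ± 0.24 and Cd36, a thrombospondin receptor, by 2.31 ± 0.35, while the integrin subunits Itgb8 and Itga9 changed by -4.01 ± 0.21 and -0.42 ± 0.14. In ES skin 2 rose, 1 fell and 13 did not pass: Itga4 changed by 0.88 ± 0.17, Itga9 by 0.83 ± 0.17 and Ptprz1, a tenascin-binding phosphatase, by -1.10 ± 0.21. In the AGM at E11.5 relative to E9.5, 8 fell, 4 rose and 4 did not pass (median -0.38). Of all genes tested, 40.9% passed in E skin, 2.83% in ES skin and 45.2% in the AGM. Itga4, a subunit of fibronectin and osteopontin receptors, changed by -2.81 ± 0.14 and Itga8, a tenascin and fibronectin receptor subunit, by -1.28 ± 0.13, while Ptprz1 rose by 1.91 ± 0.15 and Itgb8 by 1.16 ± 0.13. The 16 genes summed to 6312 to 7880 CPM in ES skin, 1242 to 2000 CPM in the AGM and 1264 to 2921 CPM in E skin.

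Of 10 genes that make, break down or bind hyaluronan, the ligand of Cd44, 3 rose, 2 fell and 5 did not pass in E skin at E14.5 relative to E9.5 (median 0.17). Cemip, which degrades hyaluronan, rose by 6.25 ± 0.42 and Lyve1, a hyaluronan receptor, by 4.92 ± 0.72, while Hapln1, a link protein, changed by -4.19 ± 0.18 and Hyal2, a hyaluronidase, by -0.60 ± 0.17. In ES skin 2 rose and 8 did not pass, with the synthase gene Has2 at 1.31 ± 0.16 and Vcan, versican, at 0.92 ± 0.16. In the AGM at E11.5 relative to E9.5, 5 fell, 1 rose and 4 did not pass, with Has1 at -2.24 ± 0.54, Cemip at -1.38 ± 0.38, Hapln3 at -0.54 ± 0.15 and Hapln1 at 1.45 ± 0.10. Has1 had few counts over both libraries of an age, 11 at E11.5 and 69 at E9.5. Over all genes tested the medians were 0.00 in E skin, 0.08 in ES skin and -0.0039 in the AGM, and 40.9%, 2.83% and 45.2% of them passed. Nothing is read from the counts of the hyaluronan list. The other genes of the Spp1 family of bone and tooth proteins, Ibsp, Dmp1, Dspp and Mepe, summed to at most 16.1 CPM in ES skin, 1.71 CPM in the AGM and 0.917 CPM in E skin.

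Over the 14 libraries and 11542 genes with a mean of 5 CPM or more, the genes most like Spp1 by Pearson correlation of log2(CPM + 1) were the cytokines Tslp (r = 0.998) and Il11 (0.997) and the chemokine Ccl7 (0.997). Tnc was most like Myof (0.990), Thbs1 like Shisa5 (0.997), Thbs2 like Col6a1, a collagen VI chain (0.994), Postn like Arhgap29 (0.966), Sparc like Atl3 (0.997), Fn1 like Tor4a (0.993) and Cd44 like Anxa1, annexin A1 (0.996). These values are descriptions that rest largely on the gap between ES skin and the rest. Over the 10 libraries without ES skin, the collagen VI genes Col6a2, Col6a1 and Col6a3 led for Thbs2 (0.997, 0.996 and 0.996), Capn6 for Tnc (0.989), Anxa6 for Thbs1 (0.996), Zfp185 for Postn (0.977), Slc44a1 for Sparc (0.998), Igf2r for Fn1 (0.976) and the mast cell protease gene Cpa3 for Cd44 (0.992). Among the 8 genes themselves, Thbs2 and Sparc were the closest pair over 14 libraries (r = 0.993), and Spp1 and Postn the least alike over 14 (0.257) and over 10 libraries (0.417).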

How the data were processed

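PolyA RNA was sequenced from 8 dorsal skin and 6 AGM libraries of wild-type embryos. The authors deposited 1 table of raw counts per gene for all 14 libraries, and per the submitters' processing notes the tools were Trimmomatic 0.36, STAR 2.5.0a, featureCounts 1.6.0 and DESeq2 1.20.0 with GRCm38/mm10. CPM was computed on library totals. Tests used edgeR 4.0.16 in R 4.3.3 (TMM scaling, filterByExpr, quasi-likelihood test, Benjamini-Hochberg adjustment over all genes tested, threshold 0.05). The AGM ages were fitted on the 6 AGM libraries. E skin, ES skin and AGM against skin were fitted on all 14 libraries in 11 groups, where the spread comes from the AGM pairs alone. Skin ages over both titles were fitted on 8 libraries with the title as a block. Adjusted p-values are edgeR's unless DESeq2 1.42.0 is named. The SE of a log2 change is its size divided by the square root of the F statistic. For genes with few counts it can lie under counting error. AGM libraries of the same round deviated together (r of 0.540, 0.377 and 0.459 over 21964 genes), so the round pairs them, from the data and the project labels, and a fit with the round as a block is given where it changes a call. The block takes the round difference out of the AGM spread only. Blocked p-values that involve skin assume that a lone skin library has no such deviation, and are likely too small. The test of the ES change minus the E change is not given for the 8 genes, which were selected on those libraries. The ES minus E skin differences were also alike between ages (r of 0.721 to 0.942). This restates the gap between the titles and does not show that their libraries are paired replicates.

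The fits were tested on simulated counts with 50 genes at each fold size: 2-fold changes were recovered in 86% for the AGM at E11.5 against E10.5 and 58% for E skin at E14.5 against E12.5, and 4-fold changes in 100% and 98%. Of the simulated calls, 5.39% were false for the AGM, 8.76% for E skin and 12.4% for both titles, against the threshold of 0.05. The E skin simulation took its spread from the AGM pairs. It therefore builds in the assumption that skin varies like them and cannot check that assumption. No library pair was identical. The genes called over both skin titles are not reported here by name. The members and lists were chosen with earlier results of these data known. Named besides the 8 genes are, of each list, the 2 genes with the largest and the 2 with the smallest change among those called, and, of the 3 genes most like each member, all for Spp1 over 14 libraries and for Thbs2 over 10, and the first otherwise. Alternatives were median-of-ratios scaling, no low-count filter, DESeq2, leaving out each replicate, the block and other sets of libraries. All 8 skin libraries are of 1 age and title each, so E and ES skin had no replicate of their own.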

Additional observations from a re-analysis of the deposited data

Results flagged for a closer look

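The change between E10.5 and E9.5 differed between the AGM and E skin for 2 of the 8 genes in a test of the difference (edgeR), which 5.82% of all genes passed. The AGM change exceeded the E skin change by 1.46 on the log2 scale for Spp1 and by 2.94 for Tnc. For Spp1 the log2 change was 0.04 in the AGM and -1.43 in E skin, and for Tnc it was -0.79 in the AGM and -3.74 in E skin. The E skin values come from 1 library per age, assumed to vary like the AGM pairs. The lower of them rest on 27 counts of Spp1 and 73 counts of Tnc at E10.5. Levels in the E skin libraries helped select the genes, so this test is no independent support for either gene. The Spp1 call ended without the ES libraries in the fit. The E9.5 AGM libraries are labelled as the caudal part of the embryo, so age and dissected part cannot be told apart in the AGM change.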

How the results depend on the processing

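Of the members' values under the alternatives, 977 kept their direction and side of the threshold, 47 newly passed, 27 no longer passed and 5 reversed, and the calls lost are given beside each result. The reversed values had not passed: Spp1 in the AGM at E10.5 against E9.5 (0.04, and -0.10 to 0.17 when 1 AGM library was left out, below 0 without E9.5 round 1 or E10.5 round 2), Fn1 in the AGM at E11.5 against E9.5 (-0.12, and -0.31 to 0.10, above 0 without E9.5 round 1) and Spp1 in both skin titles at E14.5 against E9.5 (0.51, and -0.13 with no replicate block, -0.26 to 1.18 with 1 library left out, the lowest without E skin at E14.5).

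The number of all genes called moved by over 1.5 times in 49 of 178 values. Without the low-count filter it was 1769 (AGM E10.5 against E9.5, 457 in the analysis given), 2013 (E skin E10.5 against E9.5, 1071), 1925 (ES skin, 621), 2500 (AGM minus E skin change, 1278), 11 (both titles E14.5 against E12.5, 0) and 36 (both titles E14.5 against E9.5, 2). DESeq2 gave, for the same 6 in that order apart from ES skin, 929, 645, 784, 23 and 50, and 4 for both titles at E12.5 against E10.5. It gave 3348, 2847 and 5896 for E skin at E12.5 against E10.5 (5686), E14.5 against E12.5 (5162) and E14.5 against E9.5 (8976), and 3830 and 2555 for AGM against E skin at E9.5 (6283) and E10.5 (4399).

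With the AGM round as a replicate block, which leaves 2 residual degrees of freedom, the counts were 4237 for AGM E10.5 against E9.5, 8491 for AGM E11.5 against E10.5 (4791), 3721, 9456 and 8880 for the 3 E skin intervals, 4410 for ES skin, 10037 and 8377 for AGM against E skin at E9.5 and E10.5, 4910 for the AGM minus E skin change and 8034 for the ES minus E change (5057). The block changed no other call than those given beside the results. With no replicate block, both titles gave 0 at E14.5 against E9.5.

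Leaving out 1 library gave 1 to 477 genes for AGM E10.5 against E9.5 (1 without E10.5 round 2, 24 without E9.5 round 1, 104 without E10.5 round 1), 2794 to 4566 for AGM E11.5 against E10.5, 2882 to 4436 for AGM against E skin at E10.5, 740 to 1416 for the AGM minus E skin change, 0 to 2 for both titles at E14.5 against E12.5 and 0 to 115 at E14.5 against E9.5, the most without ES skin at E14.5. Median-of-ratios scaling moved no count past 1.5 times. The causes were not tested. Single libraries per skin age limit every skin result to the assumption that skin varies like the AGM pairs (biological coefficient of variation 12.3%, against 40.9% where ES and E skin of an age were taken as replicates), and Spp1 in E skin and the AGM rests on 24 to 144 counts a library.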
